A study of Mus musculus with 31 samples.

Results

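miR-103-3p and miR-107-3p (mmu-miR-103-3p and mmu-miR-107-3p in the mouse nomenclature) are a pair of near-identical microRNAs encoded inside the pantothenate kinase genes (Pank1, Pank2 and Pank3), whose enzymes catalyse the first committed step of coenzyme A synthesis. Their rows were taken by name from the deposited tables of 1966 mature mouse microRNAs, so the 2 members described here are 2 of 1966. They were chosen with earlier results of these data known. Both were counted in each of 31 small RNA libraries and passed the filter on low counts in all comparisons. Each came from the right hippocampus of a C57Bl/6 J mouse, with 1 animal taken per library because the labels call them biological replicates. Wild-type (WT) mice formed 3 groups: WT-water (n = 7), WT-exercise (n = 5) and WT-corticosterone (n = 6). Mice lacking the serotonin transporter (5-HTT knockout, KO) formed 3 more: 6 libraries of KO-water, 5 of KO-exercise and 2 of KO-corticosterone. Exercise or corticosterone, a glucocorticoid made by the adrenal gland, was given for 4 weeks, and the series describes the untreated mice as kept in standard housing. The labels used here give no age and no further description of the knockout allele. The design asks how each treatment changed small RNAs in each genotype, and whether the genotypes differed.

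A microRNA guides the Argonaute protein to messenger RNAs, chiefly through its seed, bases 2 to 8 from the 5′ end, and lowers their translation or stability. A hairpin precursor is cut into a 5p and a 3p strand, called arms, of which one is usually retained as the guide and the other is mostly degraded. miR-103 and miR-107 are known for targeting Dicer and caveolin-1 and for their part in insulin sensitivity, and both are abundant in brain. Because each hairpin lies in an intron of a Pank gene, its transcript can arise from the host gene's own transcript.

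The mature sequences (RefSeq, GRCm38.p6) are shown because the 2 guides share every base of the seed and differ by 1 base near the 3′ end. Capitals mark the seed, and in these first sequences also base 22, which alone tells the guides apart.
miR-103-3p: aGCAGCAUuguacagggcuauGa
miR-107-3p: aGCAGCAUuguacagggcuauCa
Counted from 1 at the 5′ end, the change from miR-103-3p to miR-107-3p is G22C. A read that ends before base 22 cannot be assigned to one or the other by its sequence, and the labels used here do not say how such reads were counted. Of the 1675 microRNAs of the tables that matched a RefSeq sequence (85.2% of 1966), only these 2 carried the seed GCAGCAU.

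The opposite arms are shown because they are named by locus and, unlike miR-103-3p, each has a full sequence that belongs to 1 hairpin. Capitals mark their seed, which is shared by all 3.
miR-103-1-5p: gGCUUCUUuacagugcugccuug
miR-103-2-5p: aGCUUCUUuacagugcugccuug
miR-107-5p: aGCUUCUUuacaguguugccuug
From miR-103-2-5p to miR-103-1-5p the change is A1G, and from miR-103-2-5p to miR-107-5p it is C16U. A read that lacks the differing base cannot be assigned between the 2 arms of such a pair by its sequence.

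The 3 hairpins, with both mature arms in capitals, show how alike the loci are and where they differ in the loop and flanks.
Mir103-1: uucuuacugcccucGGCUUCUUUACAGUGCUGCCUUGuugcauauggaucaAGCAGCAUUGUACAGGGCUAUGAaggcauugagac
Mir103-2: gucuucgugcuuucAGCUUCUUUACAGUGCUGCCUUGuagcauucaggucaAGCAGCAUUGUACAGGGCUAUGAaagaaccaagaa
Mir107: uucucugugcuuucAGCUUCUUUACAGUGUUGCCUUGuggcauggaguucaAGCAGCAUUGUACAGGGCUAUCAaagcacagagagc
On GRCm38.p6, Mir103-1 lies at chr11:35782396-35782481 on the plus strand, in intron 5 of Pank3. Mir103-2 lies at chr2:131288052-131288137 on the plus strand, in intron 5 of Pank2. Mir107 lies at chr19:34820687-34820773 on the minus strand, in intron 5 of Pank1. Intron numbers are those of the GENCODE transcripts Pank3-201, Pank2-204 and Pank1-202, each with 7 exons, and each hairpin is on the strand of its host. miR-103-3p has the same sequence at Mir103-1 and Mir103-2, so its count cannot be divided between the loci. How reads that match both loci were counted is not stated, and counts are used as deposited. Host gene mRNA was not measured in these libraries.

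Total counts over mature microRNAs ranged from 1011285 to 4052174 per library. Counts of miR-103-3p ranged from 7549 to 48311 and those of miR-107-3p from 1930 to 10415. The transporter mRNA is not a feature of these tables, which leaves the genotype labels unchecked here. Sample codes begin with G or H, a letter that the labels do not explain, so values within a letter are given beside the calls that it changes: both KO-corticosterone libraries have H, and 1 of 6 WT-corticosterone libraries does. KO-water 3, 4 and 6 stood apart from KO-water 1, 2 and 5 on the main axis of within-group variation, with scores of 8.56, 14.3 and 12.6 against -11.9, -12.1 and -11.4. That axis held 38.8% of the variance left after subtracting group means. Among KO-water libraries, 3, 4 and 6 alone entered the authors' deposited table for the genotype comparison. That table also held the library labelled KO-exercise 4, which stands in the authors' exercise table too, so its label and its place in the tables differ. It was kept in KO-exercise by its label, and results that rest on it are also given without it. Results for the 2 guides that rest on KO-water are therefore given with all 6 libraries and with each set of 3. Neuron-enriched microRNAs were high throughout, the 9 markers of this list summing to between 341673 and 468408 CPM (counts relative to the library's total, scaled by TMM over all libraries).

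miR-103-3p was the more abundant guide in every library, and both are 23 bases long. Its level per library ranged from 6845.5 to 16360.1 CPM and ranked between 14 and 28 among all microRNAs. miR-107-3p ranged from 1843 to 3390.2 CPM and ranked between 46 and 64. Together they held between 0.872% and 1.84% of all counts. In order of group mean, miR-103-3p was at 13405 ± 2609.5 CPM in KO-water (SD, n = 6), 10159 ± 879.6 in WT-water (n = 7), 8918 ± 1582 in WT-exercise (n = 5), 7982 ± 853.2 in WT-corticosterone (n = 6), 7603 ± 434.3 in KO-exercise (n = 5) and 7081 ± 332.6 in KO-corticosterone (n = 2). The ranges of neighbours in this order overlapped throughout, which does not test whether the groups differ. KO-water and WT-water overlapped through the library KO-water 5 alone, at 9661 CPM. miR-107-3p was at 2899 ± 465.1 CPM in KO-water, 2217 ± 222.3 in WT-water, 2197 ± 222.8 in WT-exercise, 2078 ± 92.0 in WT-corticosterone, 2072 ± 117.0 in KO-exercise and 1938 ± 124.9 in KO-corticosterone, with the same n. The order of the groups was the same for both guides, with a narrower span for miR-107-3p.

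**Figure D1:**
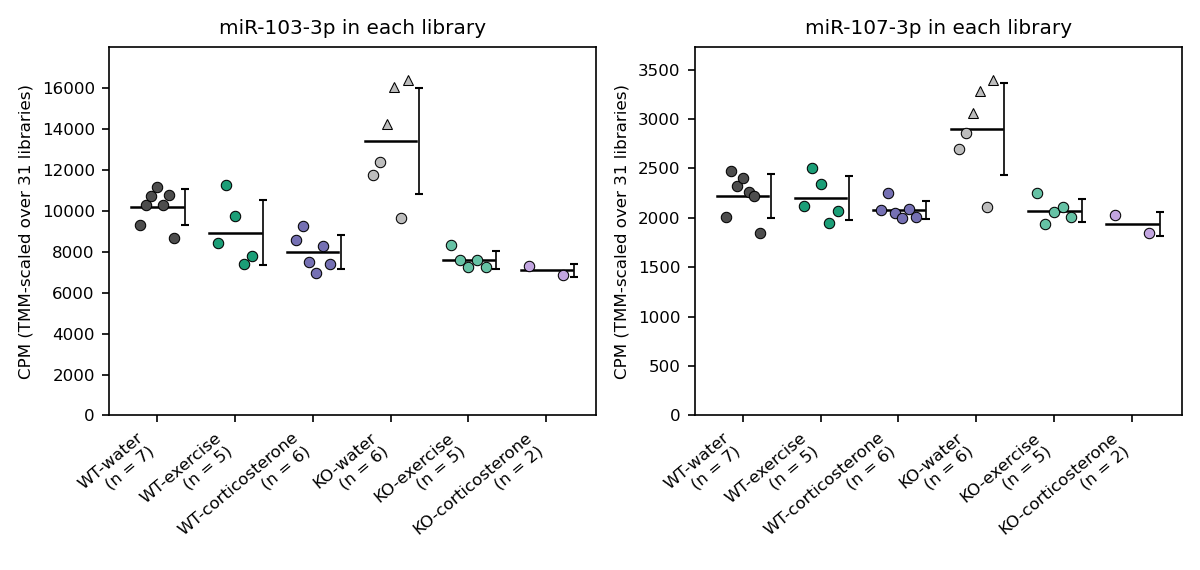
Level of miR-103-3p (left) and miR-107-3p (right) in each library, in CPM (linear axis from 0), by group. Points are libraries, triangles mark KO-water 3, 4 and 6, horizontal lines are group means and error bars are 1 SD. KO-water 3, 4 and 6 hold the highest levels of both guides, and the treated knockout groups the narrowest ranges of miR-103-3p.

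Knockout was compared with wild type first in mice given water. miR-103-3p was at 11758.5, 12397, 14220.2, 16032, 9661 and 16360.1 CPM in KO-water 1 to 6, and at a lowest 8664, median 10291 and highest 11148 in WT-water. Libraries 3, 4 and 6 were the highest of the study, and all KO-water libraries but the fifth exceeded every WT-water library (all 6 did so for 0.367% of microRNAs). miR-107-3p was at 2697, 2855, 3066, 3279, 2108 and 3390.2 CPM in KO-water 1 to 6, and at 1843, 2259.8 and 2471 (lowest, median and highest) in WT-water. Here too 5 of 6 KO-water libraries lay above the whole WT-water group. In edgeR's quasi-likelihood test, where log2 fold changes carry a standard error (SE) and p-values are adjusted by Benjamini-Hochberg over all microRNAs tested, miR-103-3p differed by 0.43 ± 0.15 (adjusted p = 0.0793) and miR-107-3p by 0.41 ± 0.14 (adjusted p = 0.0721). Neither passed the threshold of 0.05, and 0.0% of the 545 tested microRNAs did by edgeR, although 179 had an unadjusted p below 0.05 and DESeq2 called 115. Without KO-water 1, 2 or 5, edgeR called 21.4%, 19.5% and 29.2%.

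The result depended on which KO-water libraries entered. With KO-water 3, 4 and 6 alone, edgeR gave a log2 fold change over WT-water of 0.79 ± 0.10 for miR-103-3p (adjusted p = 1.48e-05) and 0.73 ± 0.10 for miR-107-3p (adjusted p = 2.70e-05), in a fit that called 354 of 581 microRNAs. With KO-water 1, 2 and 5 alone, the values were 0.14 ± 0.11 and 0.19 ± 0.12 (adjusted p = 0.877 for both by edgeR), with 0 called of 587 by edgeR. Leaving out KO-water 1, 2 or 5 singly brought both guides past the threshold (edgeR adjusted p between 0.0244 and 0.0448). In bulk tissue, fewer cells expressing a microRNA and less of it per cell cannot be told apart. Summed CPM of the 6 microglia and immune microRNAs ranged from 2481 to 9027 in KO-water and from 2445 to 3466 in WT-water, and that of the 4 oligodendrocyte microRNAs from 2189 to 6058 against 5860 to 7639. Their part in the result was not tested.

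Exercise in wild type did not move either guide past the threshold. miR-103-3p was at 8406, 11256, 9742, 7384 and 7802 CPM in WT-exercise 1 to 5, so that 3 libraries lay below and 1 above the whole WT-water group. The log2 fold change was -0.17 ± 0.13 by edgeR (95% interval -0.45 to 0.11, adjusted p = 0.324). miR-107-3p was at 2124, 2503, 2341, 1946 and 2072 CPM, overlapping WT-water broadly, with a log2 fold change of 0.012 ± 0.11 (95% interval -0.23 to 0.26, edgeR adjusted p = 0.942). So 0 of 2 guides were called, where 32.5% of the 553 microRNAs tested were, 110 higher and 70 lower, or 78 higher and 85 lower without scaling factors. This share became 20.1%, 19.4% and 18.4% without WT-exercise 3, 4 or 5, 48.8% without WT-exercise 2, and 10 of 575 within letter G.

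Corticosterone in wild type was accompanied by less miR-103-3p and no detected change of miR-107-3p. miR-103-3p ranged from 6965 to 9235 CPM in WT-corticosterone with a median of 7865, and 5 of its 6 libraries lay below the whole WT-water group. It fell by 0.29 ± 0.11 on the log2 scale (edgeR adjusted p = 0.0383). Calls were common in this comparison: 41.9% of 547 microRNAs in either direction, 24.9% higher and 17.0% lower (136 higher and 93 lower, or 101 of 224 calls higher without scaling factors). Within letter G the 229 calls became 135. The call was lost without WT-corticosterone 4 (-0.25, edgeR adjusted p = 0.0814) and with no filter on low counts (-0.34, adjusted p = 0.124). Within code letter G, the only letter with enough libraries of both groups, the value was -0.37 (edgeR adjusted p = 0.0268). miR-107-3p ranged from 1996 to 2249 CPM with a median of 2066, inside the WT-water range, and its log2 fold change was -0.034 ± 0.096 (95% interval -0.24 to 0.17, edgeR adjusted p = 0.792).

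In knockout mice, exercise was accompanied by a fall of miR-103-3p. Its levels in KO-exercise 1 to 5 were 8327, 7591, 7258, 7569 and 7271 CPM. All 5 lay below all 6 KO-water libraries, as was so for 2.68% of the 523 microRNAs tested. miR-103-3p fell by 0.78 ± 0.16 on the log2 scale (edgeR adjusted p = 0.0143), one of 5 microRNAs called lower, or 0.956% (4.02% in either direction and 3.06% higher, with 16 higher and 5 lower, or 15 and 9 with DESeq2's size factors). miR-107-3p was at 2250.3, 1941, 2061, 2105 and 2005 CPM, with 4 of 5 libraries below all of KO-water, and a log2 fold change of -0.44 ± 0.15 (95% interval -0.76 to -0.12, edgeR adjusted p = 0.144) that did not pass. Against KO-water 1, 2 and 5 alone, miR-103-3p fell by 0.56 ± 0.14 (edgeR adjusted p = 0.0182), and against KO-water 3, 4 and 6 by 1.09 ± 0.12 (adjusted p = 0.000169). miR-107-3p differed by -0.29 ± 0.14 (edgeR adjusted p = 0.160) against the first set and by -0.71 ± 0.11 (adjusted p = 0.00156) against the second. These fits called 118 and 177 microRNAs, in the same order. Without the library labelled KO-exercise 4, miR-103-3p lost its call (-0.81, edgeR adjusted p = 0.0557), miR-107-3p was at -0.48 (adjusted p = 0.255), and 13 microRNAs in place of 21 were called. The miR-107-3p difference passed without KO-water 5 (-0.51, adjusted p = 0.0431). Within letter G the miR-103-3p value was -0.78 (edgeR adjusted p = 0.261) and within letter H -0.87 (adjusted p = 0.997), as large as the pooled value but with fewer libraries.

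Corticosterone in knockout mice was represented by 2 libraries, with miR-103-3p at 7316 and 6845.5 CPM and miR-107-3p at 2026 and 1849 CPM. Both libraries lay below all 6 KO-water libraries for both guides, as was so for 4.51% of 576 microRNAs. The log2 fold changes were -0.94 ± 0.29 for miR-103-3p (edgeR adjusted p = 0.499) and -0.60 ± 0.26 for miR-107-3p (adjusted p = 0.674), and neither was called, as were only 0.521% of microRNAs. Against KO-water 3, 4 and 6 alone both passed, with -1.15 ± 0.16 (edgeR adjusted p = 0.00516) and -0.76 ± 0.15 (adjusted p = 0.0139), in a fit that called 19.2% of those tested. Against KO-water 1, 2 and 5 neither did, with -0.67 ± 0.20 (edgeR adjusted p = 0.0773) and -0.40 ± 0.20 (adjusted p = 0.234).

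Under treatment no difference between the genotypes was detected. Between KO-exercise and WT-exercise, miR-103-3p differed by -0.21 ± 0.15 (95% interval -0.55 to 0.12) and miR-107-3p by -0.066 ± 0.13 (-0.35 to 0.22), both with an edgeR adjusted p of 0.999 (-0.22 and -0.083 without KO-exercise 4). Between KO-corticosterone and WT-corticosterone, the differences were -0.16 ± 0.17 (-0.55 to 0.23) and -0.088 ± 0.15 (-0.43 to 0.25), both with an edgeR adjusted p of 1.0. In each of these comparisons 0.0% of microRNAs were called by edgeR, with 5 and 9 at an unadjusted p below 0.05, and DESeq2 called 0. A difference of the treatment effects between genotypes was tested as an interaction. For exercise it was -0.70 ± 0.21 for miR-103-3p and -0.54 ± 0.19 for miR-107-3p (edgeR adjusted p = 0.190 for both), or -0.64 and -0.49 without KO-exercise 4 (adjusted p = 0.240 for both). For corticosterone it was -0.56 ± 0.22 and -0.47 ± 0.20 (edgeR adjusted p = 0.447 for both). No interaction was called, as for 0.0% of 571 and 630 microRNAs, with 101 and 65 at an unadjusted p below 0.05 by edgeR and 6 and 0 called by DESeq2. With KO-water 3, 4 and 6 alone, all 4 values passed (edgeR adjusted p between 0.00166 and 0.00862), in fits that called 252 microRNAs for exercise and 213 for corticosterone. With KO-water 1, 2 and 5 none of the 4 passed, at -0.38 and -0.28 for exercise and -0.35 and -0.33 for corticosterone. Each treatment comparison shares its water group with the other treatment of that genotype, so the values within a genotype are not independent.

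**Figure D2:**
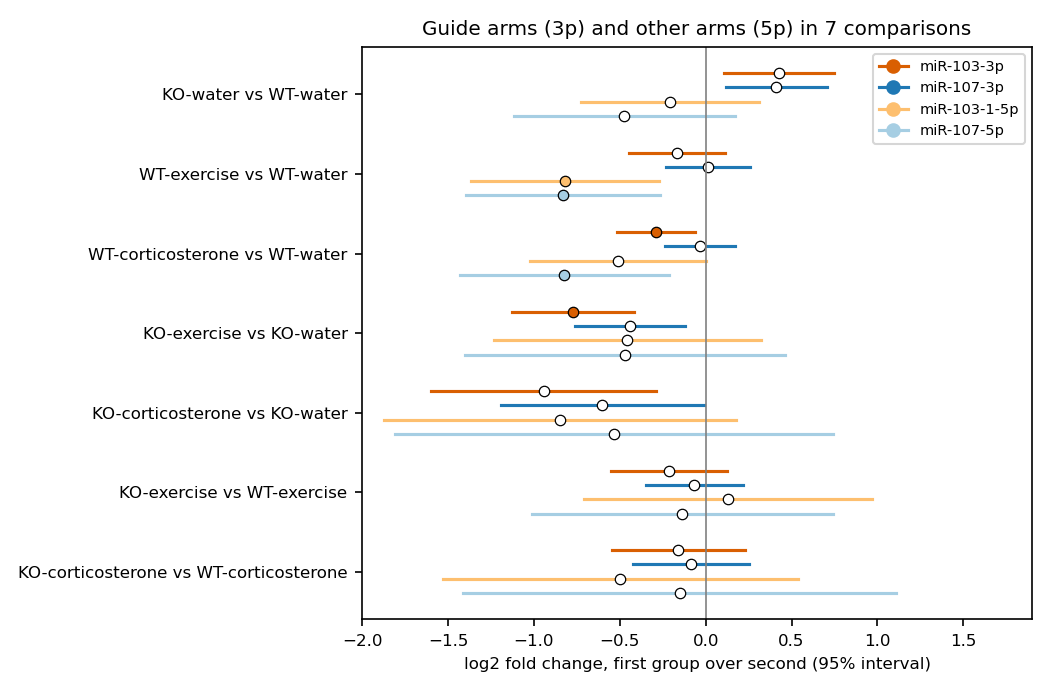
Log2 fold change of the first named group over the second in 7 comparisons, for the 2 guides and the 2 arms that passed the count filter throughout. Lines are 95% intervals, and filled points have an edgeR adjusted p below 0.05. miR-103-3p lies to the left of miR-107-3p in the 4 comparisons of a treatment with water.

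A ratio of the guides within a library does not depend on how libraries are scaled, and it shows whether miR-103-3p and miR-107-3p moved in step. In WT-water, miR-107-3p had between 20.6 and 24.1 counts per 100 counts of miR-103-3p, with a mean of 21.8 ± 1.07 (SD, n = 7). In KO-water it had 22.9, 23.0, 21.6, 20.5, 21.8 and 20.7 per 100 in libraries 1 to 6, with a mean of 21.8 ± 1.08. The 2 water groups overlapped throughout, and the log2 ratio differed by -0.0044 ± 0.039 (SE; two-sided exact permutation test, p = 0.946, adjusted p = 0.946 over 7 comparisons). In KO-water 3, 4 and 6, where both guides were highest, the mean was 20.9 ± 0.576, and in KO-water 1, 2 and 5 it was 22.6 ± 0.672.

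The treated groups had more miR-107-3p per miR-103-3p. WT-exercise 1 to 5 had 25.3, 22.2, 24.0, 26.3 and 26.6 per 100, of which 3 lay above all WT-water libraries. The mean was 24.9 ± 1.79, and the log2 ratio was higher by 0.19 ± 0.054 (two-sided exact permutation test, p = 0.00758, adjusted p = 0.0177). WT-corticosterone ranged from 24.3 to 28.7 with a median of 26.2 and a mean of 26.2 ± 1.81 (n = 6). All 6 libraries lay above all 7 WT-water libraries, as the ratio to miR-103-3p did for 14.8% of the 546 other microRNAs tested. The log2 ratio was higher by 0.26 ± 0.048 (two-sided exact permutation test, p = 0.00117, the smallest this design allows, adjusted p = 0.00816).

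KO-exercise 1 to 5 had 27.03, 25.6, 28.4, 27.8 and 27.6 counts of miR-107-3p per 100 of miR-103-3p, a mean of 27.3 ± 1.07. All 5 lay above all 6 KO-water libraries, as did the ratio to miR-103-3p of 26.2% of the 522 other microRNAs. The log2 ratio was higher by 0.33 ± 0.039 (two-sided exact permutation test, p = 0.00433, the smallest this design allows, adjusted p = 0.0152), or by 0.32 without KO-exercise 4 (exact permutation, adjusted p = 0.0222). It was higher by 0.38 against KO-water 3, 4 and 6 and by 0.27 against KO-water 1, 2 and 5, with the same sign against either set, and neither passed with so few libraries (two-sided exact permutation test, adjusted p = 0.0625 for both). KO-corticosterone had 27.7 and 27.02 per 100, a mean of 27.4 ± 0.479 (n = 2), again above all of KO-water, as for 44.5% of 575 other microRNAs. Its log2 ratio was higher by 0.33 ± 0.034, but the exact permutation test (two-sided) of 2 against 6 cannot go below p = 0.0714, the value found (adjusted p = 0.1). The difference was 0.39 against KO-water 3, 4 and 6 and 0.28 against KO-water 1, 2 and 5 (exact permutation, adjusted p = 0.28 for both). miR-103-3p, the denominator of these ratios, was itself lower in both treated knockout groups than in KO-water.

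Between genotypes under treatment, the ratio was 0.13 ± 0.054 higher on the log2 scale in KO-exercise than in WT-exercise (two-sided exact permutation test, p = 0.0317, adjusted p = 0.0556, or 0.1 without KO-exercise 4), with 4 of 5 KO-exercise libraries above all WT-exercise ones. Between KO-corticosterone and WT-corticosterone it differed by 0.066 ± 0.044 (two-sided exact permutation test, p = 0.500, adjusted p = 0.583). Within code letters the differences from water had the same sign as the pooled ones where both groups had 2 or more libraries: 0.10 (G) and 0.34 (H) for exercise in wild type, 0.23 (G) for corticosterone in wild type, 0.30 (G) and 0.38 (H) for exercise in the knockout, and 0.36 (H) for corticosterone in the knockout. Within groups, no relation of the ratio with depth was detected. After subtracting group means, its correlation with log2 total count over the 31 libraries was r = 0.19 and rho = 0.15 (permutation within groups, p = 0.291 and 0.445, adjusted p = 0.451 and 0.445 over 4 relations). It was r = 0.11 without the 2 libraries farthest from the median. Total counts ran from 1639753 to 4052174 in WT-water, 1411350 to 2279300 in WT-exercise and 1564411 to 2409803 in WT-corticosterone. In the knockout they ran from 1277046 to 3254739 (water), 1011285 to 3116879 (exercise) and 1668550 to 2352999 (corticosterone). The part of depth in the group differences was not tested. Whether the treatment effect on the ratio differed between genotypes was not tested.

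**Figure D3:**
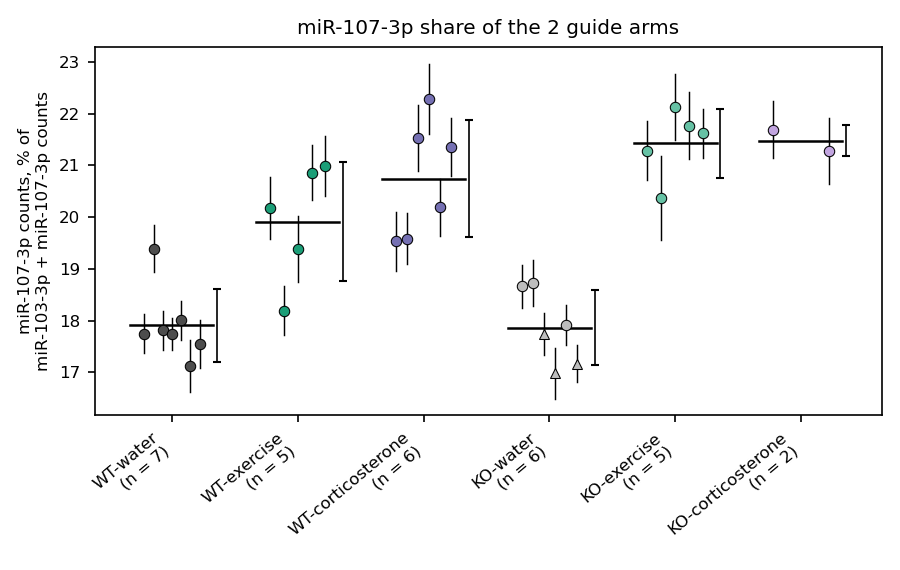
Share of miR-107-3p in the summed counts of both guides, in percent (the axis does not start at 0), per library and group. Thin lines through points are 95% exact binomial intervals, which cover counting error only, triangles mark KO-water 3, 4 and 6, and horizontal lines and error bars are group means and 1 SD. The 2 water groups lie between 17.0% and 19.4%, and the 2 KO treated groups between 20.4% and 22.1%.

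As a share of both guides, miR-107-3p ranged from 17.0% (95% exact binomial interval 16.5 to 17.5) in KO-water 4 to 22.3% (21.6 to 23.0) in WT-corticosterone 4. These intervals cover counting error only, and those of the nearest libraries of different groups overlap, as for WT-water 2 (18.9 to 19.9) and WT-corticosterone 1 (19.0 to 20.1). The share was 17.9% ± 0.712 in WT-water, 17.9% ± 0.728 in KO-water, 19.9% ± 1.16 in WT-exercise, 20.7% ± 1.13 in WT-corticosterone, 21.4% ± 0.667 in KO-exercise and 21.5% ± 0.296 in KO-corticosterone (SD, n as above).

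The 5p arms, the less retained strands of the same hairpins, differed in pattern from their guides within KO-water. miR-107-5p was the most abundant of them, with 14 to 342 counts per library. miR-103-1-5p, from the Pank3 intron, had 6 to 62 counts and miR-103-2-5p, from the Pank2 intron, 0 to 24, so that miR-103-2-5p passed the filter on low counts only in the comparison of KO-corticosterone with KO-water and in both interactions. In WT-water, miR-107-5p ranged from 50.3 to 86.5 CPM with a median of 72.6. In KO-water 1 to 6 it was at 85.5, 74.8, 24.9, 33.6, 68.5 and 18.5 CPM. Libraries 3, 4 and 6, where both guides were highest, thus had the lowest miR-107-5p of the group, and libraries 1, 2 and 5 lay inside the WT-water range. miR-103-1-5p in KO-water 1 to 6 was at 19.4, 13.1, 8.84, 8.62, 16.9 and 8.34 CPM, with the same 3 libraries lowest. Per 1000 counts of miR-107-3p there were 32.3 ± 4.98 counts of miR-107-5p in WT-water (n = 7), 30.1 ± 3.43 in KO-water 1, 2 and 5, and 7.95 ± 2.40 in KO-water 3, 4 and 6.

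Over all 6 KO-water libraries the difference from WT-water was -0.21 ± 0.24 for miR-103-1-5p (edgeR adjusted p = 0.521) and -0.47 ± 0.30 for miR-107-5p (adjusted p = 0.273). With KO-water 3, 4 and 6 alone, miR-107-5p was lower by 1.33 on the log2 scale (log2 fold change -1.33, edgeR adjusted p = 0.000107). In WT-exercise 1 to 5, miR-107-5p was at 60.8, 60.9, 26.2, 32.0 and 18.9 CPM and miR-103-1-5p at 8.69, 13.2, 7.16, 4.63 and 7.66 CPM. Of these, 3 libraries of miR-107-5p and 4 of miR-103-1-5p lay below the whole WT-water group. miR-107-5p fell by 0.83 ± 0.26 (edgeR adjusted p = 0.0282) and miR-103-1-5p by 0.82 ± 0.26 (adjusted p = 0.0259). Either call was lost when any of WT-exercise 3, 4 or 5 was left out (edgeR adjusted p between 0.0634 and 0.0831). The miR-107-5p call was also lost without WT-water 5 (adjusted p = 0.0513 by edgeR), and the miR-103-1-5p call without WT-water 3 (0.0506) or 7 (0.0540). Within code letter G neither passed (edgeR adjusted p = 0.371 for miR-107-5p and 0.369 for miR-103-1-5p), and within letter H miR-107-5p alone did (adjusted p = 0.0193 against 0.0709).

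In WT-corticosterone, miR-107-5p ranged from 18.2 to 91.5 CPM with a median of 29.8, and 5 of 6 libraries lay below all of WT-water while WT-corticosterone 2 lay above them. It fell by 0.82 ± 0.29 (edgeR adjusted p = 0.0305), a call lost without WT-corticosterone 1, 3, 5 or 6 or WT-water 5 (edgeR adjusted p between 0.0547 and 0.0739), within letter G (0.138) and in the joint fit (0.0795). Without WT-corticosterone 2, the library above WT-water, its value was -1.30 (edgeR adjusted p = 0.000134). miR-103-1-5p ranged from 7.15 to 19.2 CPM with a median of 8.28, and its log2 fold change was -0.51 ± 0.24 (edgeR adjusted p = 0.102). It passed without WT-corticosterone 2 (-0.84, edgeR adjusted p = 0.00385) or without WT-water 5 (-0.65, adjusted p = 0.0463). In KO-exercise 1 to 5, miR-107-5p was at 58.0, 14.1, 34.9, 29.8 and 39.2 CPM, within the KO-water range but for library 2. The log2 fold change was -0.47 ± 0.43 for miR-107-5p (edgeR adjusted p = 0.633) and -0.46 ± 0.36 for miR-103-1-5p (adjusted p = 0.589). In KO-corticosterone miR-107-5p was at 39.6 and 30.5 CPM, and the differences from KO-water were -0.53 ± 0.57 for miR-107-5p, -0.85 ± 0.46 for miR-103-1-5p and -0.18 ± 0.67 for miR-103-2-5p (edgeR adjusted p = 0.867, 0.770 and 0.927). The sign of the miR-107-5p difference depended on the KO-water set: against libraries 1, 2 and 5 it was -1.08 for exercise and -1.12 for corticosterone (edgeR adjusted p = 0.0345 and 0.0392), and against 3, 4 and 6 it was 0.44 and 0.46 (adjusted p = 0.377 and 0.300).

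Between the genotypes under treatment, the arms differed by 0.13 ± 0.38 (miR-103-1-5p) and -0.14 ± 0.40 (miR-107-5p) after exercise, and by -0.50 ± 0.47 and -0.15 ± 0.57 after corticosterone (edgeR adjusted p of 0.999 and 1.0). None of the arms had a called interaction. The interaction for exercise was 0.28 ± 0.44 for miR-103-1-5p, 0.41 ± 0.71 for miR-103-2-5p and 0.28 ± 0.51 for miR-107-5p (edgeR adjusted p from 0.747 to 0.775). For corticosterone it was -0.29 ± 0.49, 0.39 ± 0.80 and 0.33 ± 0.64 in the same order (edgeR adjusted p from 0.851 to 0.874). With KO-water 3, 4 and 6 alone, the exercise interaction of miR-107-5p passed, at 1.32 (edgeR adjusted p = 0.0297), in a fit that called 252 microRNAs.

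**Figure D4:**
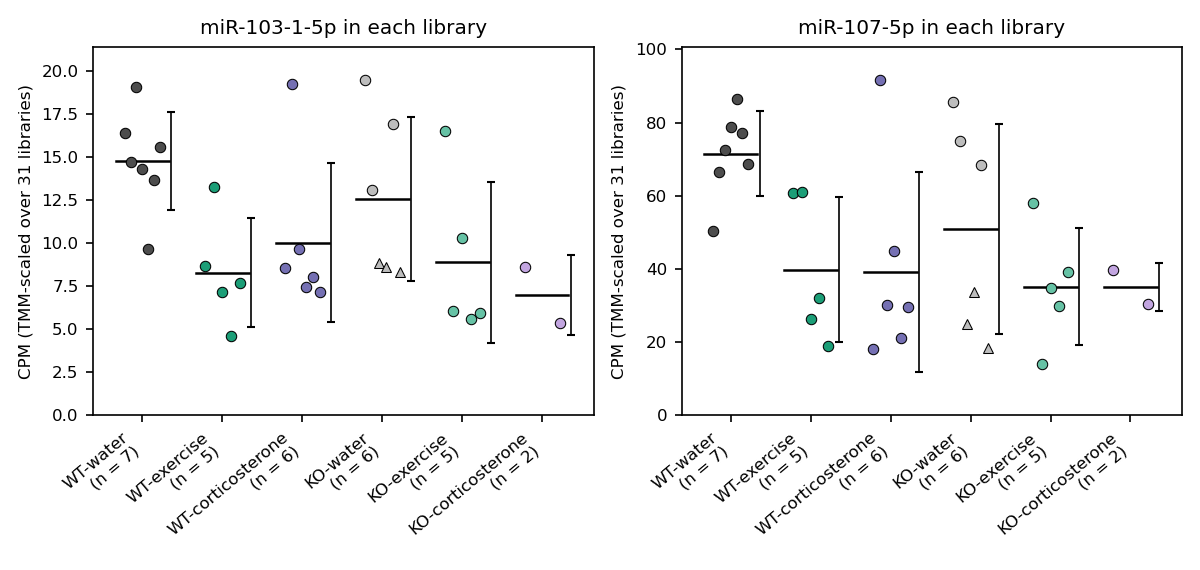
Level of miR-103-1-5p (left) and miR-107-5p (right) in each library, in CPM (linear axis from 0). Points are libraries, triangles mark KO-water 3, 4 and 6, horizontal lines are group means and error bars are 1 SD. The 3 triangles lie at 8.34 to 8.84 CPM and 18.5 to 33.6 CPM, below the other KO-water libraries.

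The guides of the Pank introns moved closely together across animals. Over 31 libraries the log2 CPM of miR-103-3p and miR-107-3p, after subtracting group means, correlated at r = 0.915, and each was the other's most alike of 463 microRNAs with a mean of at least 10 CPM. Spearman's rho was 0.896 (permutation p = 1e-05 for both, the smallest that 100000 permutations can give, adjusted p = 4e-05 over 4 relations). Without the 2 libraries farthest from the median r was 0.886, and without KO-water it was 0.858. Reads too short to hold base 22 could be shared between the rows, and their part in this correlation was not tested. Next most alike, as a description with no test, was miR-181c-3p for both guides (r = 0.721 with miR-103-3p and 0.642 with miR-107-3p). For miR-103-3p it was followed by miR-17-3p (0.619), miR-23b-3p (0.602) and miR-222-3p (0.589), and for miR-107-3p by miR-222-3p (0.596), miR-31-5p (0.58) and miR-1839-5p (0.571). The guides' own opposite arms were not among them: r was 0.0669 between miR-103-3p and miR-103-1-5p and -0.0693 between miR-107-3p and miR-107-5p. Over all 31 libraries no relation of miR-103-3p with the main axis of within-group variation was detected (r = 0.23, rho = 0.22, permutation p = 0.396 and 0.338, adjusted p = 0.451 and 0.445, r = 0.32 without the 2 farthest libraries). This pooled value joins unlike parts, as outside KO-water r was -0.33. Within KO-water, libraries 3, 4 and 6, with scores of 8.56 to 14.3, had 14220.2 to 16360.1 CPM. Libraries 1, 2 and 5, with scores of -12.1 to -11.4, had 9661 to 12397 CPM. The relation within KO-water was not tested.

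**Figure D5:**
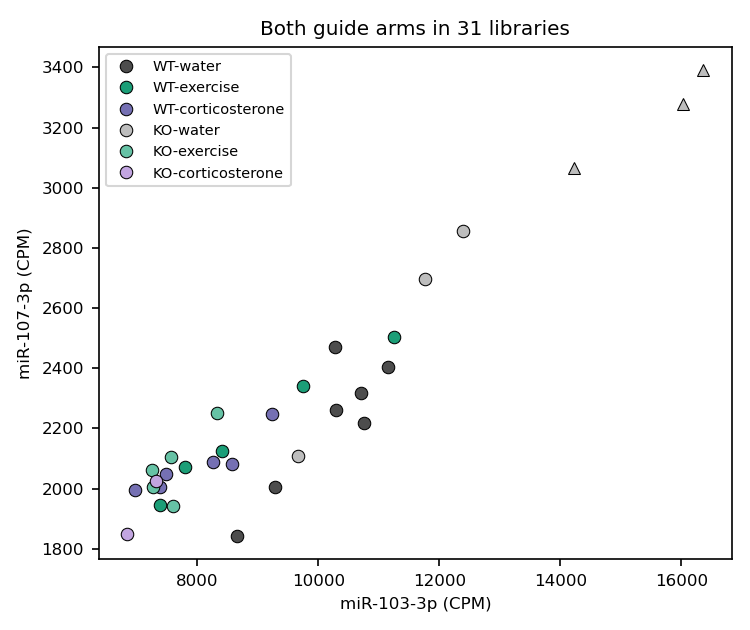
Level of miR-103-3p against miR-107-3p in 31 libraries, both in CPM (axes do not start at 0). Colours are groups and triangles mark KO-water 3, 4 and 6, which lie at the upper right with 14220.2 to 16360.1 CPM of miR-103-3p.

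Several microRNAs carry the letters AGCAGC at the start of the 5′ end and can pair with some of the same target letters. Within bases 1 to 8, read on the mature strand only, AGCAGC was found in 13 of 1675 sequences. In both Pank-hosted guides it begins at base 1, and in the miR-15/16 family it begins at base 2. The most abundant of that family, microRNAs known for repressing cell cycle genes, are shown with the seed in capitals.
miR-16-5p: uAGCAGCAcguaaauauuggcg
miR-195a-5p: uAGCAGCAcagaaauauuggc
miR-15a-5p: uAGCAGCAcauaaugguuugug
A list of 9 relatives was examined: 8 of these sequences and miR-497b, a family member by name without a match here. The other 3 (miR-6342, miR-6353 and miR-6419) had 0, 4 and 0 counts over all libraries. Of the 9 listed, 7 passed the filter on low counts. In WT-exercise 2 of 7 were called higher and 0 lower (19.9% and 12.7% of all tested), with a median log2 fold change of 0.039 beside 0.039 over all tested. In WT-corticosterone 2 of 7 were higher and 0 lower (24.9% and 17.0% of all), with a median of -0.059 beside 0.059 over all. These were miR-16-5p, higher by 1.60 ± 0.25 after exercise (edgeR adjusted p = 0.000974) and by 1.41 ± 0.20 after corticosterone (adjusted p = 9.52e-05), and miR-195a-5p, higher by 0.91 ± 0.20 and 0.78 ± 0.18 (edgeR adjusted p = 0.00631 and 0.00315). miR-16-5p ranged from 8199 to 26576 CPM in WT-exercise, from 8391 to 21694 CPM in WT-corticosterone and from 4719 to 6610 CPM in WT-water. How common such a separation is among all microRNAs of these comparisons is not given here. Thus the miR-16-5p values moved opposite to the called fall of miR-103-3p in WT-corticosterone. In the knockout and between genotypes 0 of 7 relatives were called. For miR-16-5p and miR-195a-5p the exercise calls were not kept within letter G alone (edgeR adjusted p = 0.0936 and 0.203).

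Of 29 other microRNAs that lie in introns of protein-coding genes, all 29 passed the filter. After exercise in wild type 12 rose and 3 fell (19.9% and 12.7% of all tested did, with a median log2 fold change of 0.23 beside 0.039 over all), after corticosterone in wild type 12 rose and 4 fell (24.9% and 17.0% of all, median 0.30 beside 0.059), and after exercise in the knockout 3 rose and 0 fell (3.06% and 0.956% of all, median 0.11 beside -0.014). In the other comparisons 0 of 29 were called. The 2 most abundant went in opposite directions in wild type: miR-218-5p, from the Slit genes, rose by 1.17 ± 0.27 after exercise and 1.26 ± 0.17 after corticosterone (edgeR adjusted p = 0.00667 and 5.32e-05), while miR-128-3p fell by 0.70 ± 0.20 and 0.59 ± 0.19 (edgeR adjusted p = 0.0183 and 0.0204). Both belong to the list of 9 neuron-enriched microRNAs. Of that list, 3 were called higher and 1 lower after exercise in wild type, and 4 higher and 1 lower after corticosterone. The miR-128-3p call after exercise was lost without WT-exercise 4 or 5 (edgeR adjusted p = 0.0569 and 0.0557). Within letter G the exercise calls of miR-128-3p, miR-218-5p, miR-338-3p and miR-152-3p were all lost (edgeR adjusted p = 0.318, 0.247, 0.315 and 0.103), and in the joint fit that of miR-338-3p (0.0509). The corticosterone call of miR-128-3p was lost within letter G (edgeR adjusted p = 0.0807) and in the joint fit (0.0564). miR-152-3p rose most, by 1.83 ± 0.33 and 1.86 ± 0.29 (edgeR adjusted p = 0.00237 and 0.000219). The largest fall was that of miR-338-3p, an oligodendrocyte microRNA, by 1.13 ± 0.31 and 1.13 ± 0.26 (edgeR adjusted p = 0.0153 and 0.00356). After exercise in the knockout the largest called change was that of miR-26b-5p, from the Ctdsp1 gene, which was higher by 0.84 ± 0.18 (edgeR adjusted p = 0.0164), a call lost without KO-exercise 2, 4 or 5 or KO-water 1 (adjusted p between 0.0510 and 0.104), with no filter (0.131) and within letters G (0.343) and H (0.997).

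Of 10 microRNAs with known roles in glucose and lipid metabolism, 9 were tested in wild type. After exercise 2 rose and 1 fell, and after corticosterone 4 rose and 0 fell, where 32.5% and 41.9% of all microRNAs were called, with medians of 0.29 and 0.18 beside 0.039 and 0.059 over all. The most abundant, miR-29a-3p (-0.40 ± 0.45 and -0.67 ± 0.40, edgeR adjusted p = 0.486 and 0.188) and miR-27b-3p (0.16 ± 0.13 and 0.18 ± 0.11, adjusted p = 0.336 and 0.215), were not called, although miR-29a-3p was without WT-water 5 after corticosterone (-0.93, edgeR adjusted p = 0.00433) and within letter H after exercise (-1.16, adjusted p = 0.0142). miR-378a-3p, hosted by Ppargc1b and also on the intronic list, rose by 0.90 ± 0.22 after exercise and 0.82 ± 0.21 after corticosterone (edgeR adjusted p = 0.00942 and 0.00537), the first of which was lost within letter G (0.161). miR-375-3p, a regulator of insulin secretion, fell by 0.84 ± 0.28 after exercise (edgeR adjusted p = 0.0366), a call lost without any 1 of 8 libraries: WT-exercise 2, 3, 4 or 5 or WT-water 4, 5, 6 or 7 (adjusted p between 0.0542 and 0.0861), within letter G (0.269) and in the joint fit (0.0619). In the knockout and between genotypes edgeR called 0 of these microRNAs, where at most 4.02% of all were called. In the wild-type comparisons the summed CPM of the 6 microglia and immune microRNAs ranged from 2782 to 10908 in WT-exercise and from 2801 to 8358 in WT-corticosterone, against 2445 to 3466 in WT-water, and that of the 4 oligodendrocyte microRNAs from 2171 to 6998 and 2202 to 6952, against 5860 to 7639. Their part in these results was not tested.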

How the data were processed

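Small RNA was enriched from total RNA, built into barcoded libraries (Ion Total RNA-Seq Kit v2) and read on an Ion Torrent S5, per the labels' protocols. Per the submitters' processing notes, the genome was GRCm38/mm10 and the tools named include BWA, featureCounts of Subread, limma 3.54.1 and cutadapt 2.3. Settings for strand and multi-mapping reads are not named there. The deposited values are raw counts per mature microRNA, as made by the authors, in 5 tables. The 24 columns that repeat a library held identical values and were read once.

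Groups came from the labels. Libraries held 1011285 to 4052174 counts. Each comparison was fitted on its own groups with edgeR 4.0.16 in R 4.3.3 (filterByExpr, TMM scaling, robust quasi-likelihood test, Benjamini-Hochberg adjustment over all microRNAs that passed the filter, threshold 0.05). CPM were scaled by TMM over all 31 libraries. The ratio of the guides was tested by two-sided exact permutation over libraries, adjusted over 7 comparisons. The fits were tested on simulated data. Sequences are from RefSeq (GRCm38.p6) and introns from GENCODE vM21.

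The members and lists were chosen with earlier results of these data known. The named microRNAs are the members and their opposite arms, the miR-15/16 relatives, and, for the other lists, the 2 most abundant microRNAs and those with the largest called change in each direction. miR-15a-5p, shown for its sequence, was not called in any comparison. Alternatives were DESeq2 1.42.0, its size factors in edgeR, no scaling factors, no filter, a joint fit, a covariate (the code letter or the within-group axis), each letter alone, a replicate block, each set of 3 KO-water libraries, and leaving out each library.

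The p-values of group comparisons set differences against the spread between libraries that the labels call biological replicates. Those of correlations came from permutation of libraries within groups.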

Additional observations from a re-analysis of the deposited data

Results flagged for a closer look

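Over the 2 guides, their ratio, miR-107-5p, miR-103-1-5p and miR-103-2-5p, 30 sets of libraries of a group were screened for a library far from the others by Dixon's 95% criterion, which chance meets in about 1 of 20 such sets. In WT-corticosterone, library 2 stood apart for 3 measures. miR-107-3p was at 2249 CPM there, against 1996 to 2088 in the other 5 libraries. miR-107-5p was at 91.5 CPM, against 18.2 to 44.8. miR-103-1-5p was at 19.2 CPM, against 7.15 to 9.62. In WT-water, library 2 had 24.1 counts of miR-107-3p per 100 of miR-103-3p, against 20.6 to 21.96 in the other 6 libraries. Without WT-corticosterone 2, the corticosterone change of miR-103-1-5p in wild type was -0.84 (edgeR adjusted p = 0.00385) and that of miR-107-5p -1.30 (adjusted p = 0.000134).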

How the results depend on the processing

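For the 2 guides and their ratio, 161 of 206 values under another setting and 297 of 313 with 1 library left out kept their direction and their side of the threshold. The cause of the changes was not tested. For miR-103-3p and miR-107-3p in KO-water against WT-water, both passed with DESeq2 (0.46 and 0.44), the joint fit (0.40 and 0.39), the axis as a covariate (0.40 and 0.40), and KO-water 3, 4 and 6 alone (0.79 and 0.73), which are also the KO-water libraries of the deposited genotype table, and leaving out 1 library gave 0.40 to 0.52 and 0.39 to 0.49. For exercise in wild type, miR-107-3p changed sign without scaling factors (-0.10), without a filter (-0.046), in the joint fit (-0.013) and with a replicate block (-0.017), and leaving out 1 library gave -0.033 to 0.065. For corticosterone in wild type, miR-103-3p lost its call without a filter (-0.34) and with a replicate block (-0.33), and ranged from -0.38 to -0.25 with 1 library left out. For exercise in the knockout, miR-103-3p lost its call within letter G (-0.78), letter H (-0.87) and with a replicate block (-0.71), ranging from -0.87 to -0.73 with 1 library left out. There miR-107-3p passed with DESeq2 (-0.51), the joint fit (-0.48), the axis (-0.42) and KO-water 3, 4 and 6 (-0.71), ranging from -0.52 to -0.41. For corticosterone in the knockout, miR-103-3p passed with DESeq2 (-0.91), the joint fit (-0.92), the axis (-0.91) and KO-water 3, 4 and 6 (-1.15), and miR-107-3p with the last (-0.76). Between KO-exercise and WT-exercise, miR-107-3p changed sign within letter H (0.050). The exercise interaction of miR-103-3p passed with DESeq2 (-0.69), the axis (-0.69) and KO-water 3, 4 and 6 (-0.88), and that of miR-107-3p with the axis (-0.53) and those libraries (-0.67). The corticosterone interaction passed for miR-103-3p with the axis (-0.55) and those libraries (-0.77), and for miR-107-3p with those libraries (-0.64).

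The ratio lost its call within letters G and H for exercise in wild type (0.10 and 0.34) and in the knockout (0.30 and 0.38), and against KO-water 3, 4 and 6 (0.38) or 1, 2 and 5 (0.27), where 5 against 3 libraries remain. With so few libraries, the exact permutation test cannot pass after adjustment in any of these settings, whatever the values. The losses of the calls were therefore fixed by the number of libraries, and only the values can be compared. For exercise in wild type the value within letter G was 0.10 ± 0.062 (exact permutation, adjusted p = 0.15), smaller than the pooled 0.19 ± 0.054. Between the water groups the ratio changed sign within letter H (0.021) and with KO-water 1, 2 and 5 (0.052), and ranged from -0.021 to 0.019 with 1 library left out. Between KO-exercise and WT-exercise it ranged from 0.094 to 0.16 and passed without KO-exercise 2 (exact permutation, adjusted p = 0.0278).

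The arms' called falls in wild type were lost in part: after exercise, miR-107-5p in the joint fit (edgeR adjusted p = 0.106) and with a replicate block (0.104), and miR-103-1-5p without a filter (0.0599) and with a block (0.0970). After corticosterone, miR-107-5p lost its call in the joint fit (0.0795). Uncalled differences of the arms changed sign. With KO-water 1, 2 and 5, miR-103-1-5p and miR-107-5p were at 0.15 and 0.085 against WT-water, and their exercise interactions at -0.032 and -0.24, with corticosterone interactions of -0.047 for miR-103-2-5p and -0.28 for miR-107-5p. With KO-water 3, 4 and 6, miR-107-5p was at 0.44 for exercise and 0.46 for corticosterone, and the corticosterone interaction of miR-103-1-5p at 0.28. Between KO-exercise and WT-exercise, letter H gave -0.049 for miR-103-1-5p and 0.46 for miR-107-5p, and leaving out 1 library gave -0.25 to 0.35 and -0.42 to 0.048. Between KO-corticosterone and WT-corticosterone, the letter as a covariate gave 0.014 for miR-103-1-5p and 0.29 for miR-107-5p, the axis gave 0.013 for miR-107-5p, and leaving out 1 library gave -0.34 to 0.29. With 1 library left out, the interactions of miR-103-1-5p ranged from -0.012 to 0.57 for exercise and from -0.70 to 0.017 for corticosterone.

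Over all microRNAs, the KO-water against WT-water count of 0 became 115 with DESeq2, 26 with its size factors, 23 without a filter, 69 in the joint fit, 257 with the axis and 354 with KO-water 3, 4 and 6. For exercise in the knockout, 21 became 38 with DESeq2, 40 in the joint fit, 126 with the axis, 11 without a filter, 3 within letter G, 1 within letter H, 177 with KO-water 3, 4 and 6 and 118 with 1, 2 and 5. Leaving out KO-exercise 4 gave 13. For exercise in wild type, 180 became 282 with the axis. For corticosterone in the knockout, 3 became 8 with DESeq2 or the joint fit, 30 with the axis, 0 within letter H, 19.2% of those tested with KO-water 3, 4 and 6 and 40 with 1, 2 and 5. The interactions' 0 became 6 (exercise, DESeq2), 28.5% and 17.1% of those tested with the axis, and 252 and 213 microRNAs with KO-water 3, 4 and 6. Equal replicate numbers did not pair libraries: deviations from group means of same-numbered libraries correlated at -0.54 to 0.526. With a replicate block the counts were 7 in place of 21 (exercise, knockout), 37 in place of 180 (exercise, wild type) and 22 in place of 3 (corticosterone, knockout), and the exercise calls of miR-195a-5p, miR-128-3p, miR-218-5p and miR-375-3p in wild type and of miR-26b-5p in the knockout were lost. Without scaling factors the median of all microRNAs moved from -0.084 to -0.22 (KO-water against WT-water), from 0.039 to -0.070 (exercise in wild type) and from 0.059 to -0.067 (corticosterone in wild type). miR-103-2-5p, with at most 24 counts per library, is limited by depth.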

Other observations

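Other pairs of abundant microRNAs that differ by 1 base were set beside miR-103-3p and miR-107-3p. This list was made after the values of both guides were seen, and it is given as values only. Of 242 microRNAs with at least 50 counts in every library, 11 pairs differed by 1 substitution. let-7a-5p and let-7f-5p, members of a family that limits growth genes, showed a pattern like that of the Pank-hosted pair. Their log2 ratio, taken in the direction let-7a-5p over let-7f-5p as coded, was higher than in water by 0.18 after exercise in wild type, with overlapping groups, and by 0.19 after corticosterone in wild type, 0.24 after exercise in the knockout and 0.33 after corticosterone in the knockout, without overlap. Between the water groups it differed by -0.035. These 2 of 11 pairs were the ones whose groups did not overlap in those last 3 comparisons, and 5 of 11 overlapped in all 4. Some other pairs were also higher in all 4 comparisons as coded. miR-19a-3p over miR-19b-3p differed by 0.13 and 0.037 in wild type, with overlap, and by 0.31 and 0.21 in the knockout, without overlap. miR-30e-5p over miR-30a-5p differed by 0.28, 0.21, 0.077 and 0.20, without overlap in the last alone. Other pairs went the opposite way as coded: let-7a-5p over let-7c-5p differed by -0.40 and -0.40 after exercise and corticosterone in wild type, without overlap, and by -0.26 and -0.26 in the knockout, with overlap. miR-29c-3p over miR-29a-3p differed by -0.94, -0.64, -0.46 and -0.54, with overlap throughout. The treatments of a genotype share their water libraries.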
